A study of Homo sapiens with 4 samples.

Results

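The genes of major histocompatibility complex (MHC) class I antigen presentation were examined in SK-N-BE(2) cells with and without SAPCD2-knockdown. The group holds 9 genes of the 64252 identifiers in the gene count matrix, chosen by name and matched by GENCODE symbol: the class I heavy chains HLA-B, HLA-C and HLA-E, the light chain B2M, the peptide transporter subunits TAP1 and TAP2, the loading chaperone TAPBP, the peptide-trimming enzyme ERAP1 and the transcriptional coactivator NLRC5. All 9 were in the matrix, and 8 of them were among the 18779 genes with enough counts to be tested. SK-N-BE(2) is a human neuroblastoma (NB) cell line with amplified MYCN. RNA-seq was performed on 2 libraries of cells carrying scrambled shRNA (sh-Scb, the control group) and 2 libraries of cells carrying sh-SAPCD2. Per the study's methods the shRNAs were delivered by lentivirus to stable, selected cells, so cells of both groups carry an integrated shRNA vector, and the labels do not say which SAPCD2 shRNA was used. The labels do not state separate cultures either, so p-values measure only the spread between these libraries.

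Nearly all nucleated cells show class I molecules on their surface, each made of a heavy chain, B2M and a short peptide. Peptides cut by the proteasome enter the endoplasmic reticulum through the transporter formed by TAP1 and TAP2, are trimmed there by ERAP1 and are loaded onto heavy chains held by TAPBP (tapasin), while NLRC5 turns on many of these genes in the nucleus. Cytotoxic T cells read the displayed peptides, and natural killer cells react to cells with little class I. Neuroblastoma, above all with amplified MYCN, is known for low class I expression.

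The libraries held 25347900 to 31850997 counts, and levels are given as CPM, that is, counts over the TMM-adjusted library total. The smallest amount taken as detectable, 3 counts, corresponded to 0.0955 to 0.119 CPM. Such floors account for counting error alone. SAPCD2 had 83.6 and 82.2 CPM in the control group against 35.4 and 52.5 CPM in the sh-SAPCD2 group, which left 42.7% and 63.3% of the control mean (log2 fold change −0.91, SE 0.193, edgeR quasi-likelihood test, adjusted p = 0.0206). The adrenergic neuroblastoma markers HAND2 and GATA3 were present in every library, at group means of 202 to 677 CPM. Of 12 leukocyte markers, CD3E, CD3D, MS4A1, LYZ and ITGAM had no count in any library and PTPRC had 9.32 CPM in the control mean. The summed level of the 12 was 10.3 and 10.1 CPM in the control group and 14.9 and 13.02 CPM in the sh-SAPCD2 group, with CD14 and CD68 called higher after knockdown by edgeR (means of 0.562 and 0.0544 CPM against 1.45 and 0.408 CPM). DESeq2 did not call CD14 (adjusted p = 0.159) and gave CD68 no adjusted p. CD68 passed the filter on low counts only through the sh-SAPCD2 libraries, so it had to be higher there. CD14 did not pass when any one of the 4 libraries was left out, at an adjusted p of 0.214 and 0.179 without either control library (edgeR). Markers of fibroblasts summed to 391 and 407 CPM against 455 and 421 CPM, and those of endothelium to at most 1.48 CPM in any library. These sums hide calls in both directions: by edgeR the fibroblast marker PDGFRA and the endothelial marker CLDN5 were lower after knockdown, and the endothelial marker VWF was higher. VWF passed the filter on low counts only through the sh-SAPCD2 libraries and CLDN5 only through the control libraries. DESeq2 called neither VWF nor CLDN5. The part of such cells in the results was not tested.

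Counts of genes within the MHC region of chromosome 6 may be incomplete. In the matrix, 8147 identifiers had no match in GENCODE 44, and they held 1.73% to 1.94% of the counts of each library. Among genes with a mean of at least 200 counts, 9 of 34 between HLA-F and TAPBP (26.5%) had at least 2 unmatched identifiers within 10% of their counts in all 4 libraries, compared to 720 of 10178 elsewhere (7.07%). RPS18, a ribosomal protein gene of that region, had 4 such identifiers. Whether these are the same genes on alternative sequences of chromosome 6 was not analysed here. HLA-B, HLA-C, HLA-E, TAP1, TAP2 and TAPBP lie in this region, and all 6 had too few counts for the same check, whereas B2M on chromosome 15 had 0 such identifiers.

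Class I presentation genes were mostly higher in SAPCD2-knockdown cells, but few passed the test. HLA-C and B2M rose, none of the 8 tested members fell, and only HLA-C was a differentially expressed gene (DEG), which also requires an absolute log2 fold change over 1. At an unadjusted p under 0.05, 4 of the 8 were higher and 0 lower, and DESeq2 called 2 higher and 0 lower. Among all 18779 tested genes, 12.4% were called higher and 12.5% lower (24.8% in all) at a Benjamini-Hochberg adjusted p under 0.05 in edgeR's quasi-likelihood test, and 4.69% were DEGs with a higher and 5.15% with a lower level. The median log2 fold change was 0.53 over the 8 members and 0.02 over all tested genes. In 7 of the 8, both sh-SAPCD2 libraries lay above both control libraries, a pattern found in 33.5% of all tested genes, with 33.4% showing the opposite. TAP1 is among these, although it passed the filter on low counts only through the sh-SAPCD2 libraries, so it had to be higher there. So is ERAP1, by a negligible margin: its lower sh-SAPCD2 library had 12.48 CPM against 12.47 CPM in its higher control library.

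**Figure D1:**
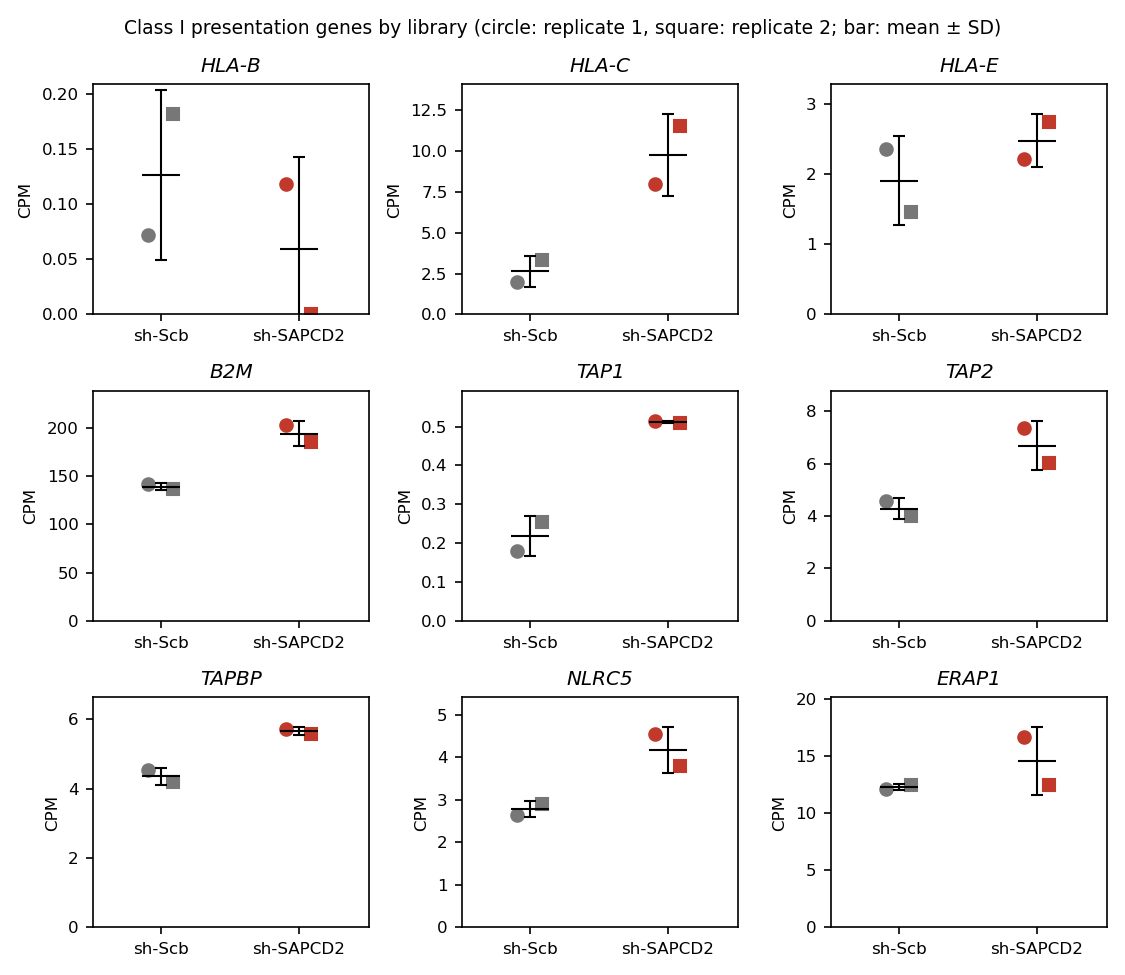
CPM of the 9 class I presentation genes in each library, on a linear axis that starts at 0 and differs by gene. Circles are replicate 1, squares replicate 2, and black bars the mean ± SD (n = 2 per group, cut at 0 for HLA-B). HLA-C and B2M passed the test, HLA-E overlaps and HLA-B is near 0.

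HLA-C encodes a classical heavy chain that presents peptides to T cells and is also the main ligand of killer cell immunoglobulin-like receptors on natural killer cells. It lies on the minus strand at chr6:31268749-31272130 (hg38; ENSG00000204525). It had 1.95 and 3.31 CPM in the control libraries (54 and 91 counts) and 7.98 and 11.5 CPM in the sh-SAPCD2 libraries (202 and 361 counts). The groups did not overlap, and the lower sh-SAPCD2 library was still well above the higher control library. The mean rose from 2.63 ± 0.956 to 9.74 ± 2.49 CPM (SD, n = 2), a log2 fold change of 1.89 (SE 0.322, edgeR quasi-likelihood test, adjusted p = 0.0112). HLA-C passed the test under each of 13 other settings, with log2 fold changes from 1.56 to 2.32.

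HLA-B, the classical heavy chain encoded next to it at chr6:31353872-31367067 (minus strand, ENSG00000234745), was hardly detected. It had 2 and 5 counts in the control libraries and 3 and 0 counts in the sh-SAPCD2 libraries. All 4 libraries were at or about the floor and no fold change can be given, so a change in HLA-B was not detectable at this depth. Counts in the MHC region may also be incomplete, as described above, so a true difference in level between HLA-B and HLA-C is not settled. The bases before the starts of HLA-C and HLA-B are shown because these neighbors are alike in sequence and differ in counts. They are positions −200 to −1 from the RefSeq start (GRCh38.p14, chr6:31272093-31272292 and chr6:31357180-31357379, both minus strand, 5′ to 3′). Capitals mark matches to 6 motifs of class I promoters or interferon response searched on both strands.
HLA-C: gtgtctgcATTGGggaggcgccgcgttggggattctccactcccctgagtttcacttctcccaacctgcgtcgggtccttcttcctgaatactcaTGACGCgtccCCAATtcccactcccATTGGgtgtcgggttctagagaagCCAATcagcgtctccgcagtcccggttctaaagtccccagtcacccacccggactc
HLA-B: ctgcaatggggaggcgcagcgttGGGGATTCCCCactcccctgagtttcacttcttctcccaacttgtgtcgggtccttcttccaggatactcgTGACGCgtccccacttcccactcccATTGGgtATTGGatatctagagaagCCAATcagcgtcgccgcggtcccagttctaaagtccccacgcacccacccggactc

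Over the 250 bases before each start, 226 of the aligned bases were identical and 20 differed (91.9% identity), with 8 gap positions. Both genes held the X2 box core TGACGC, at −105 in HLA-C and −106 in HLA-B, and the Y box CCAAT at −56. These boxes are docking sites of the complex through which NLRC5 acts. The kappaB-like enhancer A motif, which is GGGG, any 2 bases and TCCC, matched in HLA-B at −177 and −176 on its 2 strands, overlapping itself, and had no match in the HLA-C window.

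HLA-E, a nonclassical heavy chain that shows signal peptides of other class I chains to natural killer cells, did not pass the test. It lies at chr6:30489509-30494194 (plus strand, ENSG00000204592). Its level was 2.35 and 1.45 CPM in the control group and 2.21 and 2.74 CPM in the sh-SAPCD2 group. The groups overlapped, and the log2 fold change was 0.38 (SE 0.331, edgeR quasi-likelihood test, adjusted p = 0.435).

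Reads can be exchanged between near-identical heavy chains, and how reads with several matches were counted is not given in the sources used here. The counts of HLA-B, HLA-C, HLA-E, HLA-F and HLA-G were therefore also added up, a sum chosen after seeing the data. It was 123 and 139 counts in the control libraries and 263 and 450 counts in the sh-SAPCD2 libraries. The groups did not overlap, and the log2 fold change was 1.38 (SE 0.223, edgeR quasi-likelihood test, adjusted p = 0.00968). The sum passed under all other settings, with log2 fold changes of 1.13 to 1.59 when 1 library was left out. Most of its counts in the sh-SAPCD2 libraries were those of HLA-C. HLA-F had 2 or 3 counts in each library and HLA-G none.

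B2M encodes the light chain shared by all class I molecules and was the most abundant member. It lies at chr15:44711358-44718851 (plus strand, ENSG00000166710), away from the MHC region. It had 141.8 and 136.4 CPM in the control libraries (3918 and 3752 counts) and 203 and 185 CPM in the sh-SAPCD2 libraries (5146 and 5806 counts). The groups did not overlap, and the spread within each was small beside the gap. B2M rose from 139.1 ± 3.87 to 194.1 ± 13.02 CPM (SD, n = 2), 1.40-fold, with a log2 fold change of 0.48 (SE 0.102, edgeR quasi-likelihood test, adjusted p = 0.0211). The call rests on both control libraries: the adjusted p was 0.266 without sh-Scb replicate 1 and 0.342 without sh-Scb replicate 2 (edgeR), at log2 fold changes of 0.51 and 0.45. With no filter on low counts it was 0.0562 at the same log2 fold change. The promoter of B2M is shown for its interferon-stimulated response element (ISRE) core, which is GAAA, any 2 bases and GAAA, and which matched at −144 and −138 in overlapping positions, with a Y box at −49 on the other strand (chr15:44711317-44711516, plus strand, RefSeq GRCh38.p14, −200 to −1).
B2M: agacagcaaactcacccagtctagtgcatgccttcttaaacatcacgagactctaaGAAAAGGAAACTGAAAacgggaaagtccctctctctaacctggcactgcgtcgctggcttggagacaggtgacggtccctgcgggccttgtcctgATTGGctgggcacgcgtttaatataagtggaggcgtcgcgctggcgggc

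TAP1 and TAP2 form the pump that moves peptides into the endoplasmic reticulum. TAP2 (chr6:32821833-32838739, minus strand, ENSG00000204267) had 4.56 and 3.998 CPM in the control group and 7.35 and 6.02 CPM in the sh-SAPCD2 group. Both sh-SAPCD2 libraries were above both controls, but the difference did not pass the test (log2 fold change 0.64, SE 0.214, edgeR quasi-likelihood test, adjusted p = 0.0759). TAP2 did pass without sh-SAPCD2 replicate 2 (log2 fold change 0.78, adjusted p = 0.0325, edgeR) and after correction for GC content and length (0.65, adjusted p = 0.0344, edgeR). TAP1 (chr6:32845209-32853816, minus strand, ENSG00000168394) was far scarcer, at 5 and 7 counts in the control libraries and 13 and 16 counts in the sh-SAPCD2 libraries. In CPM these were 0.181 and 0.254 against 0.514 and 0.509, with no overlap. Its log2 fold change of 1.22 had the largest error of the tested members and did not pass (SE 0.531, edgeR quasi-likelihood test, adjusted p = 0.145). TAP1 overlaps the immunoproteasome gene PSMB9 and PSMB8-AS1 on the opposite strand, which held at most 3 counts in any library.

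TAPBP, which bridges empty heavy chains to the transporter, did not pass the test. It lies at chr6:33299694-33314284 (minus strand, ENSG00000231925). Its level was 4.53 and 4.18 CPM in the control group and 5.73 and 5.57 CPM in the sh-SAPCD2 group. The groups did not overlap, and the log2 fold change was 0.38 (SE 0.198, edgeR quasi-likelihood test, adjusted p = 0.212). TAP2 and TAPBP are shown because each held an ISRE core close to its start (RefSeq GRCh38.p14, minus strand, −200 to −1, chr6:32838740-32838939 and chr6:33314079-33314278). In TAP2 the ISRE core stood at −58 with an X2 box core at −35, and in TAPBP overlapping ISRE cores stood at −20 and −14.
TAP2: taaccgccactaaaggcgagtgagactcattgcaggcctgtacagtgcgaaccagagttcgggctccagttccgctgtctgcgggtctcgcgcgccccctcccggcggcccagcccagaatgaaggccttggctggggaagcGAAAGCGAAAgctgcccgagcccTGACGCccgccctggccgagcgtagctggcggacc
TAPBP: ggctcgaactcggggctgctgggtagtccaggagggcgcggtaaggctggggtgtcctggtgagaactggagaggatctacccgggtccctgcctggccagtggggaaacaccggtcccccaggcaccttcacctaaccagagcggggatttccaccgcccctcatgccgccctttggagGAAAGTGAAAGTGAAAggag

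ERAP1, the aminopeptidase that trims peptides to the length that fits a heavy chain, had the smallest log2 fold change of the tested members. It lies at chr5:96760810-96808100 (minus strand, ENSG00000164307). It had 12.1 and 12.5 CPM in the control libraries and 16.6 and 12.5 CPM in the sh-SAPCD2 libraries. The second sh-SAPCD2 library was level with the controls, and the log2 fold change of 0.24 did not pass the test (SE 0.187, edgeR quasi-likelihood test, adjusted p = 0.384). Without sh-SAPCD2 replicate 2 it was 0.44 and passed (adjusted p = 0.0438, edgeR). On the opposite strand ERAP1 overlaps CAST, which encodes the protease inhibitor calpastatin. CAST fell from 53.1 and 53.2 CPM to 26.6 and 18.1 CPM (log2 fold change −1.25, SE 0.197, edgeR quasi-likelihood test, adjusted p = 0.00903). The strandedness of the libraries is not given in the sources used here, and without strand the reads of both genes in the overlap cannot be told apart.

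NLRC5, the coactivator of class I genes, had 2.64 and 2.91 CPM in the control group and 4.54 and 3.79 CPM in the sh-SAPCD2 group. Its position is chr16:56989485-57083531 (plus strand, ENSG00000140853). Both sh-SAPCD2 libraries were above the controls, but the log2 fold change of 0.58 did not pass the test (SE 0.234, edgeR quasi-likelihood test, adjusted p = 0.120). Across the 13 other settings it stayed between 0.43 and 0.71 and passed in none, with adjusted p values of 0.0634 to 0.499 in edgeR and DESeq2.

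The sh-SAPCD2 libraries did not order all members in the same way. HLA-C and HLA-E were higher in replicate 2, the library that kept more SAPCD2. B2M, TAP2, NLRC5 and ERAP1 were higher in replicate 1, whereas TAP1 and TAPBP were nearly level between the libraries.

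**Figure D2:**
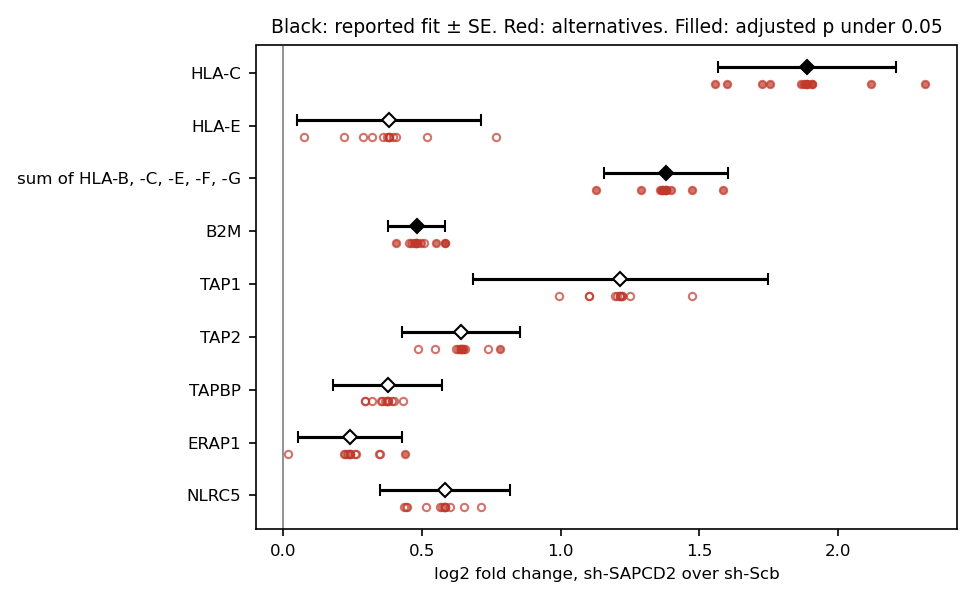
Log2 fold change (sh-SAPCD2 over sh-Scb) of the 8 tested members and of the summed counts of HLA-B, HLA-C, HLA-E, HLA-F and HLA-G, with the SE of the reported fit in black and the values under other settings in red. Filled symbols passed an adjusted p of 0.05; HLA-C at 1.89 is filled throughout, and all values lie above 0.

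Per length, levels among the members covered a wide range. RPKM is here CPM per kilobase of the canonical transcript of a gene. In the control group B2M had a mean of 148 RPKM, far above ERAP1 with 2.54, HLA-C with 1.71 and TAPBP with 1.26 RPKM. TAP2 (0.758), HLA-E (0.747) and NLRC5 (0.409) followed, and HLA-B (0.0827) and TAP1 (0.0811) came last on this RPKM scale. The libraries of HLA-C and TAPBP, of TAP2 and HLA-E, and of HLA-B and TAP1 overlapped, so the order within these pairs is not settled, while the other neighbors did not overlap. In the sh-SAPCD2 group HLA-C (6.31 RPKM) stood above ERAP1 (3.01 RPKM) without overlap. TAP1 (0.191 RPKM) stood above HLA-B (0.0386 RPKM). The levels of the genes on chromosome 6 carry the limit on unmatched identifiers given above.

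Promoter windows from 250 bases before to 50 after the RefSeq start were at hand for 7 of the 9 members, HLA-E and NLRC5 excepted. The ISRE core matched in windows of B2M, TAP1, TAP2, TAPBP and ERAP1, and in 3.57% of all 35116 windows. The X2 box core matched in HLA-B, HLA-C and TAP2 (9.14% of all windows), and the Y box in HLA-B, HLA-C, B2M, TAP1 and ERAP1 (34.6%). The kappaB-like motif matched in HLA-B and ERAP1 (2.78%), and the interferon-gamma motif GAS (TTC, any 3 bases and GAA) in TAP1 (7.66%). The E-box CACGTG, which MYC family proteins bind, matched in 7.26% of all windows and in no window of a member. Only exact matches to the letters of each motif were counted, so a window without a match may still hold a variant form. A match describes the sequence and not binding in these cells, and members that passed the test and members that did not both held matches.

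**Figure D3:**
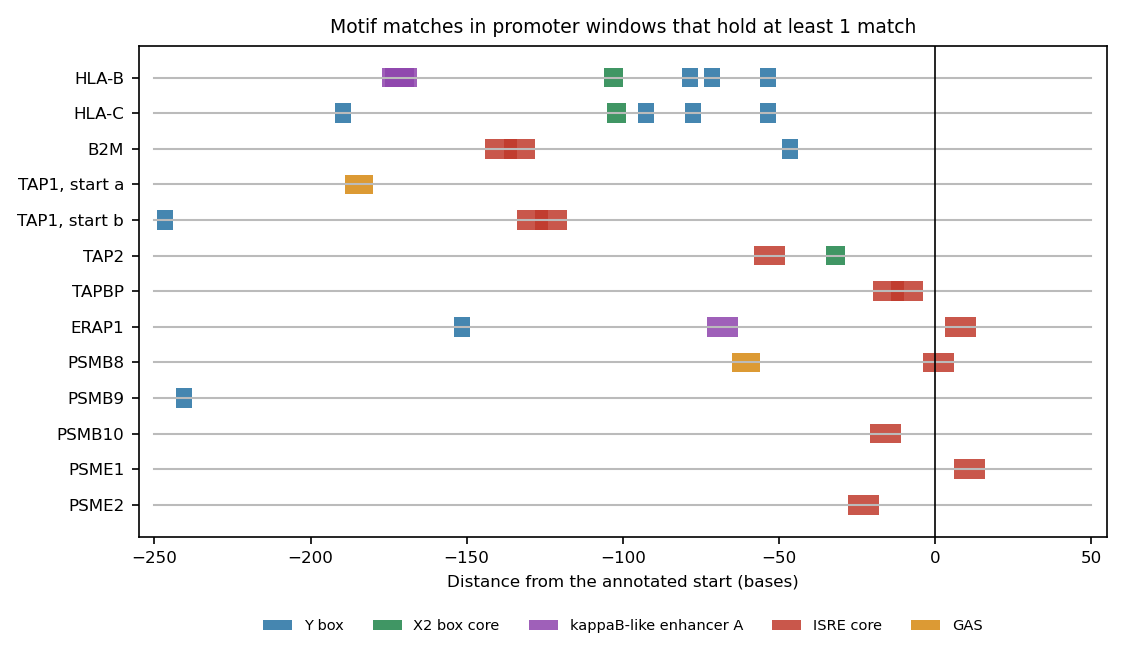
Matches to 5 motifs, drawn by distance in bases from the annotated start, in each promoter window with at least 1 match; TAP1 has matches at 2 annotated starts. The ISRE core begins between −144 and 6 bases from a start of B2M, TAP1, TAP2, TAPBP, ERAP1, PSMB8, PSMB10, PSME1 and PSME2.

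The proteasome genes that feed the class I pathway differed by kind. The immunoproteasome, an interferon-inducible form of the proteasome, and its activator PA28 had 3 of 5 tested genes higher and 0 lower (median log2 fold change 0.79). Over all tested genes, 12.4% were called higher and 12.5% lower. PSMB10, a catalytic subunit of the immunoproteasome, went from 10.3 and 9.96 CPM to 17.6 and 26.6 CPM (log2 fold change 1.13, SE 0.223, edgeR quasi-likelihood test, adjusted p = 0.0170). The PA28 subunits PSME1 and PSME2 rose from means of 51.4 and 34.0 CPM to 79.9 and 58.9 CPM, log2 fold changes of 0.64 and 0.79 (adjusted p = 0.0125 and 0.00949, edgeR). Without sh-Scb replicate 1 or replicate 2 the adjusted p was 0.173 and 0.140 for PSME1 and 0.0543 and 0.0873 for PSME2, and with no filter on low counts it was 0.0629 for PSMB10 (edgeR). PSMB8 had 6 and 12 against 28 and 23 counts and did not pass (log2 fold change 1.47, adjusted p = 0.0930, edgeR). Only 1 control library of PSMB8 reached the filter on low counts, against both sh-SAPCD2 libraries. The control group alone would not have let PSMB8 be tested, and it is part of the list median. PSMB9 had 1 count in 1 library. In the constitutive 20S proteasome, 0 of 14 tested subunits passed in either direction by the same edgeR test or by DESeq2, with 1 higher and 1 lower at an unadjusted p under 0.05, and the median log2 fold change was 0.00.

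In the list of peptide loading and quality control in the endoplasmic reticulum, 2 of 13 tested genes rose and 0 fell (median log2 fold change 0.14). The shares over all tested genes were 12.4% higher and 12.5% lower. HSPA5, the chaperone BiP, rose from 340 to 529 CPM (log2 fold change 0.64, SE 0.0998, edgeR quasi-likelihood test, adjusted p = 0.00889). PDIA3, the disulfide isomerase of the peptide-loading complex, rose from 322 to 430 CPM (log2 fold change 0.42, adjusted p = 0.0394, edgeR). Without sh-Scb replicate 1 or replicate 2 the adjusted p was 0.132 and 0.107 for HSPA5 and 0.404 and 0.342 for PDIA3 (edgeR). The lectin chaperones that hold new heavy chains did not pass: CALR had a log2 fold change of 0.32 (adjusted p = 0.110, edgeR) and CANX of 0.04 (adjusted p = 0.807, edgeR). The peptide editor TAPBPL and the second trimming enzyme ERAP2 had log2 fold changes of 0.32 each and did not pass either. Of 8 cytosolic peptidases, 1 rose and 2 fell (median log2 fold change −0.10), beside 12.4% and 12.5% of all tested genes. LAP3 rose (log2 fold change 0.70) whereas THOP1, which destroys many peptides before they reach the transporter, and IDE fell (log2 fold changes −1.63 and −0.67). The adjusted p without sh-Scb replicate 1 or replicate 2 was 0.130 and 0.0782 for LAP3 and 0.0949 and 0.149 for IDE, whereas THOP1 passed under every setting (edgeR).

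Among 17 tested transcription factors of class I genes, 2 rose and 3 fell (median log2 fold change −0.21), beside 12.4% and 12.5% of all tested genes. RELA, a subunit of NF-kappaB, and IRF2 rose (log2 fold changes 0.51 and 0.52), and NFKB1, another NF-kappaB subunit, the Y-box binding NFYB and CREB1 fell (−0.79, −0.78 and −0.62). Without sh-Scb replicate 1, RELA, NFYB and CREB1 did not pass (adjusted p = 0.281, 0.0877 and 0.134, edgeR). Without sh-Scb replicate 2, RELA, NFKB1 and CREB1 did not pass (adjusted p = 0.301, 0.152 and 0.141, edgeR). IRF1, the interferon-induced activator of class I genes, was at 1.25 CPM in the control mean and 0.694 CPM in the sh-SAPCD2 mean and did not pass (log2 fold change −0.84, adjusted p = 0.148, edgeR quasi-likelihood test). RFX5, which binds the X box, and CIITA, the relative of NLRC5 that drives class II genes, did not pass (log2 fold changes −0.26 and 0.80, adjusted p = 0.124 and 0.0812, edgeR). Of 14 genes of interferon receptor signaling, none passed in either direction by edgeR or DESeq2, with 2 higher and 1 lower at an unadjusted p under 0.05.

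Of 15 genes known to repress class I expression, 1 rose and 3 fell (median log2 fold change −0.16), beside 12.4% and 12.5% of all tested genes. The gene that rose was MYCN, from a mean of 3207 to 6498 CPM (log2 fold change 1.02, SE 0.111, edgeR quasi-likelihood test, adjusted p = 0.00378). The DNA methyltransferases DNMT1 and DNMT3B and the histone methyltransferase EZH2 fell (log2 fold changes −0.57, −0.55 and −0.54). Without sh-Scb replicate 1 or replicate 2 the adjusted p was 0.181 and 0.157 for DNMT1, 0.161 and 0.446 for DNMT3B and 0.207 and 0.208 for EZH2, whereas MYCN passed under every setting (edgeR). Of 9 tested genes of class I turnover, 3 rose and 0 fell by edgeR, and the same by DESeq2 (median log2 fold change 0.16). Over all tested genes, edgeR called 12.4% higher and 12.5% lower. The ubiquitin ligases SYVN1, MARCHF4 and MARCHF9 were those that rose (log2 fold changes 0.87, 0.91 and 0.86). SYVN1 and MARCHF9 did not pass without sh-Scb replicate 1 (adjusted p = 0.0766 and 0.0822, edgeR), nor MARCHF4 without sh-Scb replicate 2 (adjusted p = 0.0716, edgeR). Among class I-like chains, AZGP1 rose (log2 fold change 1.70), and FCGRT, the neonatal Fc receptor that pairs with B2M, fell (−1.19).

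**Figure D4:**
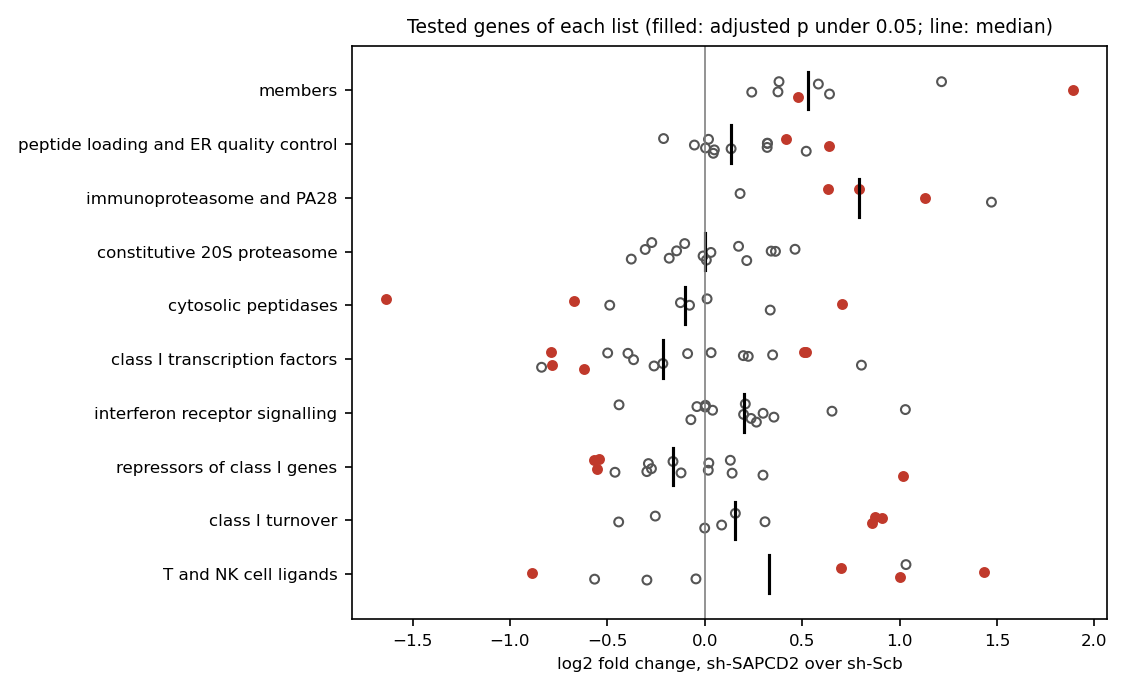
Log2 fold changes (sh-SAPCD2 over sh-Scb) of the tested members and of the tested genes of 9 other lists, 1 point per gene, with filled points for an adjusted p under 0.05 and a line at each median. The median is 0.53 for the members, 0.79 for the immunoproteasome and PA28 and 0.00 for the constitutive 20S proteasome. TAP1 among the members and PSMB8 in the immunoproteasome list would not have been tested on the control libraries alone.

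Genes around the members on chromosome 6 changed in both directions. From HLA-F to TAPBP (chr6:29722775-33314284), 87 of 146 protein-coding genes were tested, and 8 rose and 8 fell (9.20% each, against 12.4% and 12.5% of all tested genes). Their median log2 fold change was 0.08.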

How the data were processed

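RNA-seq was performed on 4 libraries of SK-N-BE(2) cells, 2 per group, grouped by the condition in the labels. Reads were paired-end, 150 bp each. HISAT2 2.2.0 (genome hg38) and StringTie were the tools of the authors, who deposited whole-number counts per Ensembl gene with no scaling. Annotation release, strandedness and the step from coverage to counts are not given in the sources used here. Identifiers were named through GENCODE 44 (56105 of 64252 matched). Counts were TMM-scaled, filtered with filterByExpr (minimum count 10, minimum total 15) and tested in edgeR 4.0.16 (quasi-likelihood test, R 4.3.3), with Benjamini-Hochberg adjustment over 18779 genes. The biological coefficient of variation was 15.4%. Libraries held 25347900 to 31850997 counts. The test was tried on simulated data. RPKM used the length of the Ensembl canonical transcript of each gene in GENCODE 44, while counts were per gene. Alternatives were DESeq2 1.42.0, other scalings and filters, a replicate block, a loess correction for GC content and length (span 0.3), other thresholds, protein-coding genes alone and each library left out. Matched identifiers alone, and the sum of heavy chains, were added after seeing the data, and some planned values are not reported here.

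The members and the 16 other lists (191 genes, 149 tested) were chosen with earlier results of these data known. Named were all members, SAPCD2, preset pathway genes, genes overlapping a member and at most 4 called genes per list with the smallest p and at least 1 CPM. RPS18, IRF2, CD68, VWF, CLDN5, CD274, HLA-DRA, HLA-DRB1, CD3E, CD3D, MS4A1, LYZ and ITGAM were named after their values were seen. Motifs were searched in RefSeq promoter windows (GRCh38.p14), whose starts can lie inside a longer GENCODE gene. Figures used matplotlib 3.10.9, and the alignment Biopython 1.88.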

Additional observations from a re-analysis of the deposited data

How the results depend on the processing

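HLA-C passed under all 13 other settings and B2M under 10 of 13, and no tested member changed sign. The members called higher numbered 2, compared to 1 with no filter on low counts, 0 at an adjusted p under 0.01, and 1 to 4 with 1 library left out (1 without either control library and 4 without sh-SAPCD2 replicate 2, where the lone library was assumed to vary like the other group). Over the other lists, 22 of the 149 tested genes were higher and 22 lower, beside 12.4% and 12.5% of all tested genes. With no filter these lists had 12 higher and 14 lower. Leaving out 1 library gave 8 to 42 higher and 10 to 43 lower, the fewest without either control library, and correction for GC content and length gave 35 higher. With no filter, SAPCD2 kept its log2 fold change of −0.91 (adjusted p = 0.0749) in edgeR. The summed counts of HLA-B, HLA-C, HLA-E, HLA-F and HLA-G passed under every setting. The cause of these shifts was not tested.

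Calls over all genes numbered 2326 higher and 2339 lower, compared to 1081 and 1180 of 34935 genes with no filter, 3926 and 3621 after the GC content and length correction, 3890 and 3533 with that correction and the block, and 1176 to 4396 and 1146 to 4014 with 1 library left out. Libraries that share a replicate number did not deviate together (r = −0.0188 over genes, only 2 pairs). With the replicate number as a block, 2860 genes were higher and 2701 lower, the members called higher numbered 2, and the summed counts had a log2 fold change of 1.37. Of 35 other named genes that passed, 12 passed under every setting and 0 changed direction, 18 were lost without each control library in turn and 13 with no filter.

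At this depth HLA-B and PSMB9 could not be assessed, TAP1 rested on 5 to 16 counts per library, and the completeness of counts in the MHC region was not tested.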

Other observations

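Surface ligands by which T cells and natural killer cells read a tumor cell, other than class I itself, changed in both directions. Of 8 tested genes, 3 rose and 1 fell (median log2 fold change 0.33), beside 12.4% and 12.5% of all tested genes. CD276, the checkpoint ligand B7-H3, rose from 103 ± 0.773 to 277 ± 30.8 CPM (SD, n = 2; log2 fold change 1.43, SE 0.115, edgeR quasi-likelihood test, adjusted p = 0.00230). NECTIN2 and PVR, ligands of the receptors DNAM-1 and TIGIT, rose with log2 fold changes of 1.00 and 0.70, and NCR3LG1, the ligand B7-H6 of the activating receptor NKp30, fell by 0.89 on the log2 scale. CD276 passed under every other setting, whereas the adjusted p without sh-Scb replicate 1 or replicate 2 was 0.105 and 0.223 for PVR, and 0.108 without replicate 2 for NECTIN2 (edgeR). With no filter on low counts NCR3LG1 did not pass (adjusted p = 0.0812, edgeR). CD274, the checkpoint ligand PD-L1, had at most 5 counts in any library.

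MHC class II genes had few counts. Of 11 genes, 4 had no count in any library, including HLA-DRA and HLA-DRB1. The 3 tested genes had 0 called in either direction by edgeR or DESeq2 and 0 at an unadjusted p under 0.05. Over all tested genes, edgeR called 12.4% higher and 12.5% lower. CD74, the invariant chain, had 7 and 9 counts in the control libraries compared to 2 and 4 after SAPCD2-knockdown.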
